A study of Mus musculus with 4 samples.

Results

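Acetylation of histone H3 at lysine 27 (H3K27ac), a mark of active promoters and enhancers, was described at 9 genes of the vascular basement membrane in mouse liver sinusoidal endothelial cells (LSECs). These are 5 laminin chains (*Lama4*, *Lama5*, *Lamb1*, *Lamb2*, and *Lamc1*), the nidogens *Nid1* and *Nid2*, *Hspg2*, which encodes perlecan, and *Sparc*. They were taken by name from the 21883 protein-coding genes of the RefSeq annotation of GRCm38, and all 9 were found. For each gene, peaks were collected over the gene body and 10 kb on each side. A region within 1 kb of either end of the gene was called a gene-end region and every other region distal. Distances of a region from a gene end are those of its centre unless an edge is named. Of the study's samples, the 2 anti-H3K27ac libraries of isolated LSECs, numbered 2 and 3, were used, and their inputs were not analysed here. The sample records give the cell type and the antibody but no strain, genotype, age, or treatment, and nothing states that the libraries came from separate mice. In the methods, LSECs were purified from perfused, protease-digested livers with anti-CD146 beads and plated on collagen I for a few hours. The mice of that protocol carried a floxed *Col4a1* allele with or without *Cdh5*-CreERT2, a recombinase driven by an endothelial promoter, or dCas9-KRAB with *Cdh5*-CreERT2. Which of them, if any, gave the ChIP-Seq cells, whether those cells were plated, and whether mice were pooled are not stated. The paper's results call the assay tagmentation-assisted, whereas the sample records name sonication and a kit for sheared DNA.

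Basement membranes are thin sheets of matrix under endothelium and epithelium. Laminins are cross-shaped trimers of an α, a β, and a γ chain that form a first network on the cell surface, and type IV collagen forms a network beside it. Nidogens and perlecan, a proteoglycan with heparan sulfate chains, connect these networks, and SPARC is a secreted glycoprotein that binds type IV and other collagens. The laminins of endothelium carry the α4 or the α5 chain. In healthy liver the sinusoidal wall lacks a continuous basement membrane, and such a sheet appears when sinusoids take on the form of capillaries in fibrosis.

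Replicate 2 held 26975 peaks and replicate 3 held 64498. The number of reads behind each list is unknown, so fold enrichments over background, as the authors' peak caller gave them, were ranked within a list and not compared between lists. A region held the overlapping peaks of the libraries, and it was called shared when peaks of both overlapped by at least 1 bp. The labelled cell type was checked with marker genes. Of 17 LSEC markers, 12 had a shared gene-end region, *Lyve1*, *Stab1*, *Cdh5*, and *Kdr* among them, and all 17 had a shared distal region. *Stab2*, *Clec4g*, *Mrc1*, and *Tek* had gene-end peaks in replicate 3 only, and *Cd36* had none in either library. Of 12 hepatic stellate cell markers, 0 had a shared gene-end region, and *Pdgfra*, *Pdgfrb*, *Des*, and *Lrat* had no gene-end peak in either library, while *Col1a1* and *Acta2* had 1 each in replicate 3. Shared gene-end regions lay at 2 of 12 hepatocyte markers (*Trf* and *Ass1*), 2 of 10 Kupffer cell markers (*Cd68* and *Spi1*), 0 of 7 cholangiocyte markers, 1 of 7 lymphocyte markers (*Cd79a*), and 3 of 7 markers of continuous endothelium (*Cd34*, *Plvap*, and *Ly6a*). At *Cd34* the replicate 2 peak of the region lay more than 1 kb from the gene end. Of all protein-coding genes, 44.1% had such a region and 39.3% a shared distal one. At least 1 shared distal region lay at 5 of 12 hepatocyte markers, 3 of 7 lymphocyte markers, 3 of 7 markers of continuous endothelium, 2 of 12 stellate cell markers, 2 of 10 Kupffer cell markers, and 1 of 7 cholangiocyte markers. Chromatin was pooled from many cells, so fewer cells with the mark and less of the mark per cell cannot be told apart.

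In the windows of the 9 genes lay 102 regions, of which 35 (34.3%) were shared, 67 had a peak in replicate 3 only, and 0 had one in replicate 2 only. Over the genome, 37.4% of 64629 regions were shared. Of the 9 genes, 5 had a shared gene-end region (*Lamb2*, *Lamc1*, *Nid1*, *Nid2*, and *Hspg2*), against 44.1% of all protein-coding genes. The count was 2 (*Lamc1* and *Nid1*) when the overlap had to cover 50% of each peak. Of the 6 genes with a listed strand, 2 (*Nid1* and *Hspg2*) had a shared region at the 5′ end. *Lama4*, *Lamc1*, and *Nid2* have no listed strand and could not be counted that way. Neither rule was applied to all protein-coding genes, so the 44.1% is no background for these counts. *Lama4*, *Lama5*, and *Sparc* had a gene-end peak in replicate 3 only, and *Lamb1* had none in either library. Counted by library, 5 of 9 genes had a replicate 2 peak at an end, against 43.4% of all genes, and 8 of 9 had a replicate 3 peak, against 53.9%. Distal regions were found in replicate 3 at all 9 genes, against 60.6% of all genes, and shared ones at 8 of 9, against 39.3%. These genes are long, with a median of 64.5 kb against 17.2 kb over all genes, and a longer gene offers more room for distal regions. Each gene was therefore also set beside the protein-coding genes within 2 times its own length. Among those, a shared gene-end region was present at 49.3% to 54.6% of genes, and a shared distal region at 39.2% to 56.1%.

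**Figure D1:**
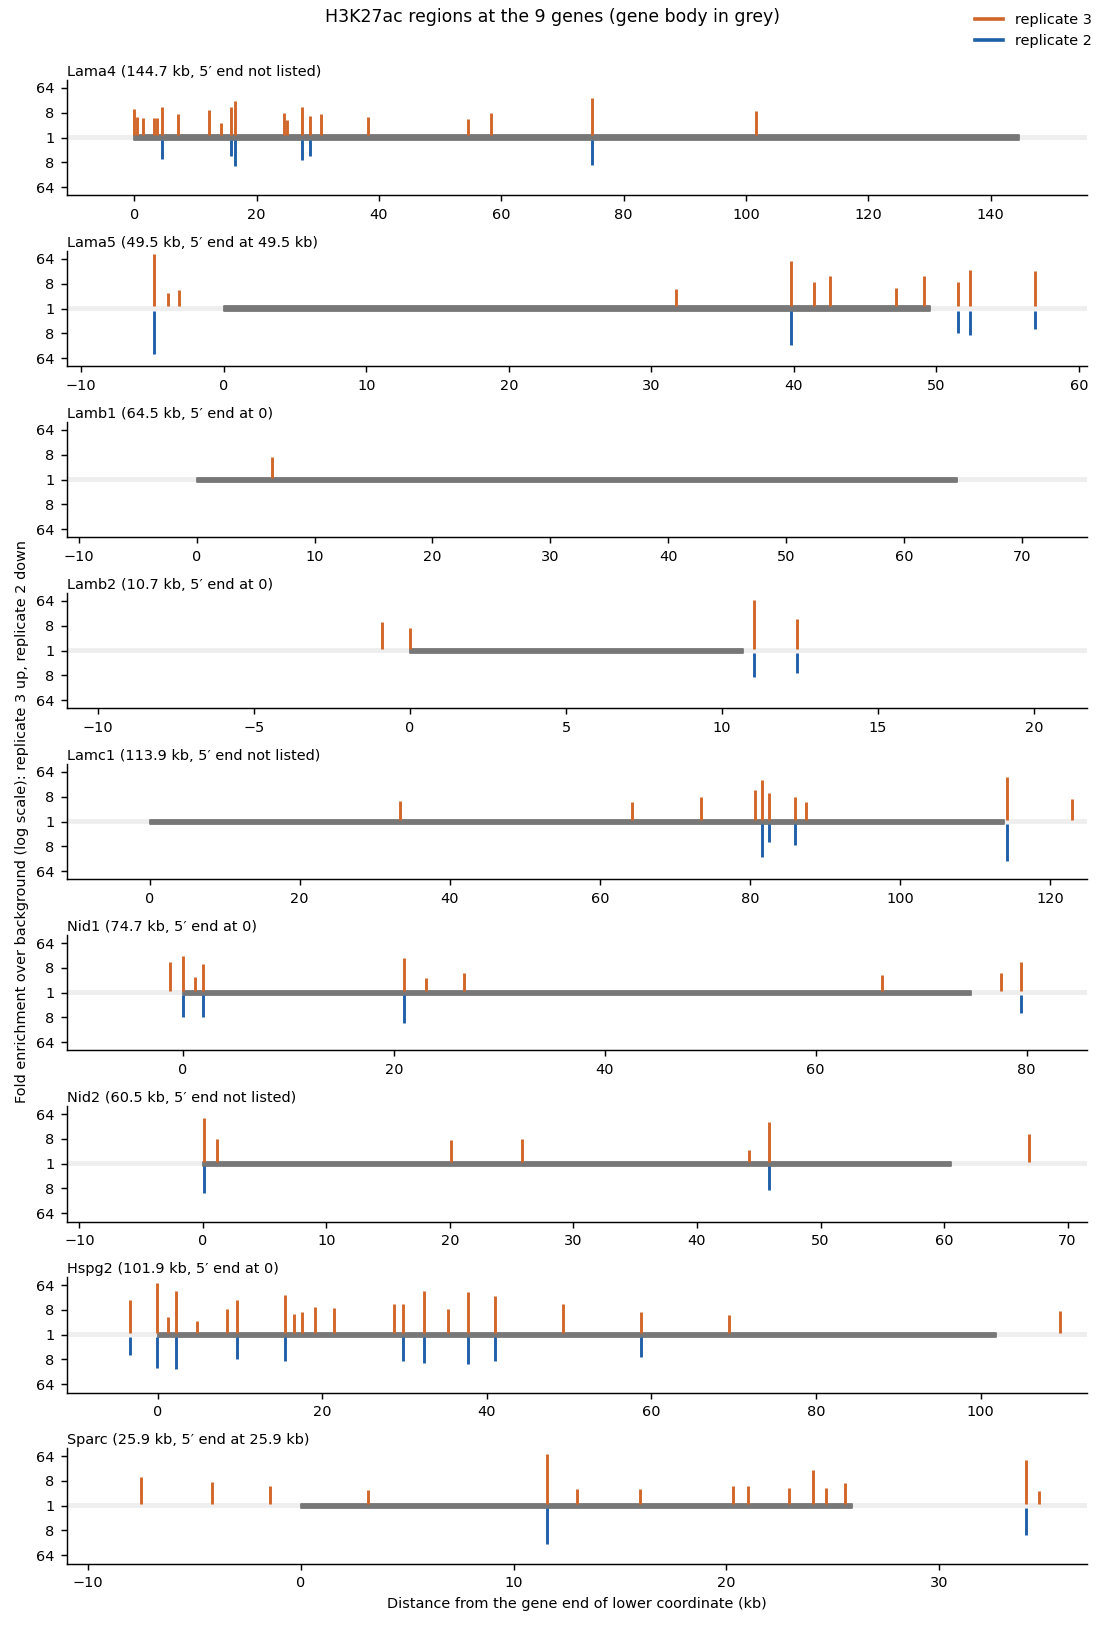
Regions of H3K27ac at the 9 genes, 1 panel per gene, with position relative to the gene end of lower coordinate in kb on the x axis and the fold enrichment of the strongest peak in each region on a log axis, replicate 3 upward and replicate 2 downward. Grey bars are gene bodies. *Hspg2* and *Lama4* carry rows of peaks of both libraries over part of the body, and *Lamb1* carries a single replicate 3 peak.

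Among the α chains, *Lama4* and *Lama5* had no shared gene-end region, yet each had several shared distal regions. *Lama4* encodes the α4 chain, and its gene of 144.7 kb on chromosome 10 held 21 regions, all in the body. At its lower-coordinate end, replicate 3 had peaks with fold enrichments of 10.6 and 5.42, and replicate 2 had none. Of the 4495 peaks of replicate 3 that lay within 10% of the stronger value, 26.96% had a replicate 2 peak. The 6 shared regions of *Lama4* were all distal, and 5 of them lay in a stretch of 24.5 kb whose near edge was 4.39 kb from that end. The strongest of these 5, at chr10:38981623-38982446, reached 10.5 in replicate 2 and 22.1 in replicate 3. The sixth stood apart, 74.8 kb from that end, at chr10:39040050-39040604, with 10.2 in replicate 2 and 27.6 in replicate 3. In the replicate 2 list the 6 regions ranked from the 2.32nd to the 53.9th percentile, 4 of them below its median. In replicate 3 they ranked from the 31.9th to the 81.4th. The count of 6 was at the 92.5th percentile of 2873 genes of like length, whose median was 1.

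*Lama5* encodes the α5 chain, and its gene of 49.5 kb on chromosome 2 had 5 shared distal regions. Its 5′ end carried a replicate 3 peak of 1023 bp with a fold enrichment of 15.6, and replicate 2 had no peak there. Of replicate 3 peaks of like strength, within 10%, 58.6% had a replicate 2 peak. Upstream of the 5′ end, 3 shared regions lay 2.0, 2.86, and 7.42 kb away, the strongest of them with 8.81 in replicate 2 and 24.5 in replicate 3. Inside the body, 9.68 kb downstream of the 5′ end, a shared region at chr2:180215875-180216487 had 21.0 in replicate 2 and 54.3 in replicate 3, the 84.9th and 92.7th percentiles. The fifth shared region, with the highest fold enrichment in any of the 9 windows (44.7 and 95.3), lay at the 5′ end of *Adrm1*, a neighbouring gene for a ubiquitin receptor of the proteasome, whose 3′ end lies 90 bp from that of *Lama5*. Without it, *Lama5* had 4 shared distal regions. The count of 5 was at the 97.7th percentile of 6236 genes of like length, whose median was 0. In the gene body alone the count was 1, and the share of the body covered by peaks of both libraries, 0.581%, was at the 54.2nd percentile, or at the 87.3rd on replicate 3 alone.

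Of the β chain genes, *Lamb1* had no shared region, and *Lamb2* had 2, at and past its 3′ end. *Lamb1* encodes the β1 chain. In its window of chromosome 12 there was a single peak, at chr12:31271439-31271647, 6.25 kb downstream of the 5′ end, where replicate 3 had a fold enrichment of 6.51 and replicate 2 no peak. Of replicate 3 peaks of like strength, 5.88% had a replicate 2 peak, so at this strength a missing replicate 2 peak says little. The nearest edge of a shared region lay 85.7 kb before the 5′ end of *Lamb1* and 21.2 kb past its 3′ end, the latter at the far end of *Dld*, a gene for a mitochondrial dehydrogenase. *Lamb2*, for the β2 chain, had a shared gene-end region, but at its 3′ end, 77 bp from the start of *Usp19*, which encodes a deubiquitinase. This region, at chr9:108490397-108491344, had 9.22 in replicate 2, the 46.3rd percentile, and 69.0 in replicate 3, the 95.6th. At the 5′ end of *Lamb2*, replicate 3 had 2 peaks, with fold enrichments of 11.4 and 6.42, and replicate 2 had none. The only shared distal region of *Lamb2*, with 6.78 and 13.6, lay 1.74 kb past its 3′ end in the body of *Usp19*. A choice made after seeing the data was to leave out gene-end regions within 1 kb of an end of another protein-coding gene. It left 4 of 9 genes with a shared gene-end region, and the share of all genes was not counted this way.

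*Lamc1*, for the γ1 chain that most laminins contain, had a broad shared region at a gene end and a group of 3 in the body. At the higher-coordinate end of this gene of 113.9 kb on chromosome 1 lay the widest of the 35 shared regions, 2399 bp at chr1:153331952-153334350, with 27.5 in replicate 2 and 41.2 in replicate 3. These values were at the 92.7th and 88.5th percentiles, the highest rank in replicate 2 of the 5 shared gene-end regions. Inside the body, 3 shared regions, centred 27.9 to 32.2 kb from that end, lay within 5.13 kb from edge to edge. The strongest, at chr1:153300033-153301126, had 19.0 and 33.9, and the others had 5.49 and 10.7, and 7.15 and 7.96. The other 6 regions of this gene were in replicate 3 only. With peak lists of equal length 1 of the 3 body regions was shared, and 0 were when the overlap had to cover 50% of each peak. Peaks of both libraries covered 1.28% of the *Lamc1* body, at the 84.2nd percentile of 3582 genes of like length, and at the 73.0th among all genes of at least 10 kb.

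Both nidogen genes had a shared gene-end region, and it was stronger at *Nid2* than at *Nid1* by rank in both libraries. At the 5′ end of *Nid1* on chromosome 13, the region of 423 bp at chr13:13437355-13437777 had 7.93 in replicate 2 and 21.5 in replicate 3, the 35.7th and 76.4th percentiles. At the lower-coordinate end of *Nid2* on chromosome 14, the region at chr14:19750915-19751733 had 11.4 and 44.3, the 57.5th and 89.7th percentiles. With 2 libraries this order has no test. *Nid1* had 3 shared distal regions. The nearest lay 1.89 kb downstream of its 5′ end, the strongest, with 12.8 and 18.9, lay 21.0 kb downstream, and the last lay past the 3′ end, 79.4 kb from the 5′ end. *Nid2* had a single shared distal region, 45.9 kb from its lower-coordinate end, with 8.81 and 33.5. The counts of distal regions were at the 86.8th and 62.5th percentiles of genes of like length. *Rtraf*, whose 3′ end lies 385 bp inside *Nid2*, had a shared region at its 5′ end, outside the window.

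*Hspg2*, for the core protein of perlecan, had the most shared regions of the 9 genes, 10 of 22, and the most shared distal regions, 9, though with an overlap of 50% of each peak it had 3 distal ones and *Lama4* 4. Its 5′ end on chromosome 4 carried a region of 1034 bp at chr4:137468196-137469229 with 15.8 in replicate 2 and 75.7 in replicate 3, the 73.8th and 96.6th percentiles. In replicate 3 this was the strongest of the 5 shared gene-end regions. A region 3.38 kb upstream and 8 in the body were also shared, and all 8 lay between 2.17 and 58.7 kb downstream of the 5′ end of a gene of 101.9 kb. The one at 2.17 kb had 18.3 in replicate 2, the highest replicate 2 value at *Hspg2*, and 39.2 in replicate 3. Joined across the gap commonly used to stitch enhancers, the 10 shared regions formed a cluster of 5 over 19.6 kb around the 5′ end, a cluster of 4 over 11.6 kb, and a single region. The 9 distal regions were at the 98.96th percentile of 3879 genes of like length, whose 90th percentile was 4. Peaks of both libraries covered 2.72% of the body, at the 96.3rd percentile, against a median of 0.349%.

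*Sparc*, for a secreted collagen-binding protein, had a replicate 3 peak alone at its 5′ end and a strong shared region in the body. Its window held 15 regions, 2 of them shared and 13 with a peak in replicate 3 only. At the 5′ end on chromosome 11, replicate 3 had a peak of 354 bp with a fold enrichment of 6.51, at the 34.6th percentile, and replicate 2 had none. A replicate 3 peak 1.86 kb downstream had 20.4, the highest value of the 67 regions without a replicate 2 peak, and 81.2% of replicate 3 peaks of like strength had one. Near the middle of the body, 14.4 kb downstream of the 5′ end, lay a shared region of 1926 bp at chr11:55404761-55406686, with 25.8 in replicate 2 and 77.1 in replicate 3, the 91.1st and 96.8th percentiles. A second shared region lay 8.17 kb upstream, at chr11:55427865-55428636, with 12.2 and 44.8. Because the gene is only 25.9 kb long, the body region alone brought the share covered by peaks of both libraries to 3.42%, the largest of the 9 genes and at the 91.1st percentile of 7799 genes of like length.

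**Figure D2:**
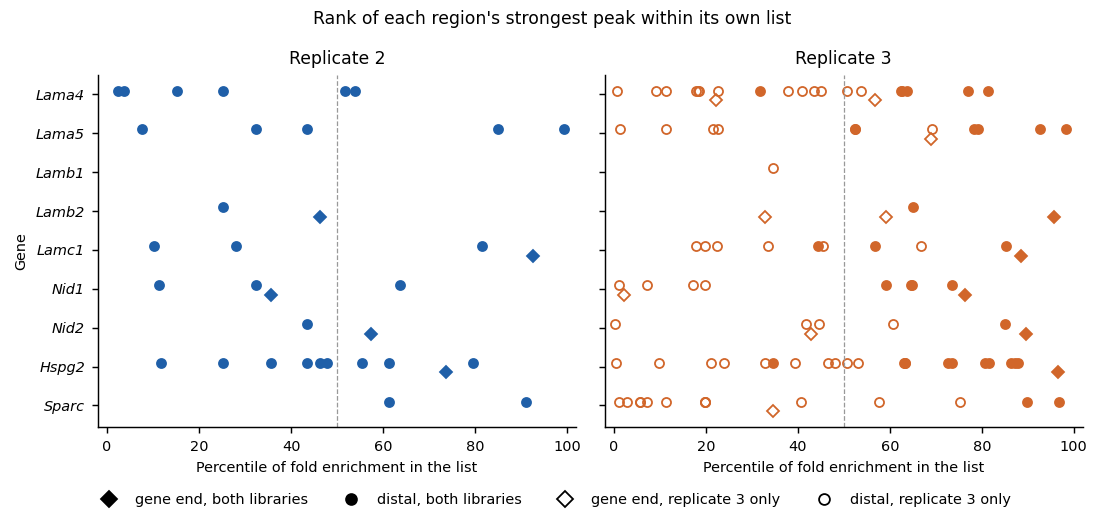
Percentile of the fold enrichment of each region's strongest peak within its own list on the x axis, by gene on the y axis, replicate 2 on the left and replicate 3 on the right. Filled symbols are regions of both libraries, open symbols regions of replicate 3 only, diamonds gene-end regions, and circles distal ones, and the dashed line is the median of the list. In replicate 3, 32 of 35 shared regions and 16 of 67 others are above the median, and in replicate 2, 14 of 35 shared regions are.

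Promoter sequences, 250 bases before to 50 bases after the annotated start, were held by the RefSeq table of GRCm38 for 6 of the 9 genes, *Lama5*, *Lamb1*, *Lamb2*, *Nid1*, *Hspg2*, and *Sparc*. *Lama4*, *Lamc1*, and *Nid2* have no entry. For comparison with the gene-end regions above, 4 are printed 5′ to 3′. Those of *Hspg2* and *Nid1* lie under peaks of both libraries, over 279 and 270 bases in replicate 2 and 300 and 297 in replicate 3, and those of *Lamb1* and *Sparc* lie under no peak. Capitals mark the GC box GGGCGG and the CACCC box CCACCC on either strand, letters that proteins of the SP and KLF families are known to bind.
Hspg2: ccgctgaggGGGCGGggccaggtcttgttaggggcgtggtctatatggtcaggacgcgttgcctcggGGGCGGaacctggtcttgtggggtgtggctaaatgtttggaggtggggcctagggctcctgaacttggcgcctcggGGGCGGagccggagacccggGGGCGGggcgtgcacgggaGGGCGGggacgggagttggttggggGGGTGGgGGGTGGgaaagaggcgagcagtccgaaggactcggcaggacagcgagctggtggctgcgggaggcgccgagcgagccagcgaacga
Nid1: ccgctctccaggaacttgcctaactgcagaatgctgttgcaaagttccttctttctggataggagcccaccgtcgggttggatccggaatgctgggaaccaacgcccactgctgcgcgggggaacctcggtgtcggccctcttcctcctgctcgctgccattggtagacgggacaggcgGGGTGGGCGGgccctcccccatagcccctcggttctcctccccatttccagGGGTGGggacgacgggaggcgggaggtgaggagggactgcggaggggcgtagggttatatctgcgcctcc
Lamb1: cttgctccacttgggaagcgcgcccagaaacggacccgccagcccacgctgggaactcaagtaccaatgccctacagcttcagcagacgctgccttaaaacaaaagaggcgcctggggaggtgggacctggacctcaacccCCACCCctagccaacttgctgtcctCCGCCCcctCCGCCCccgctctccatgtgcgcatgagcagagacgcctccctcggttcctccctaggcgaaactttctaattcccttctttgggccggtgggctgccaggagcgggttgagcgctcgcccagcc
Sparc: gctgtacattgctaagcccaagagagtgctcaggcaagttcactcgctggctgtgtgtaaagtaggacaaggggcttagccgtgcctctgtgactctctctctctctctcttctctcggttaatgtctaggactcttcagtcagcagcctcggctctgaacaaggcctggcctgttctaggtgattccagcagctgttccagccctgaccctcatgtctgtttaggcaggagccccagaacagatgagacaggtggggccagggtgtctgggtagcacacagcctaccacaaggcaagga
The *Hspg2* sequence, from chr4:137468553-137468852 on the plus strand, held 5 GC boxes and 2 CACCC boxes. That of *Nid1*, from chr13:13437352-13437651 on the plus strand, held 1 and 2, in part overlapping. That of *Lamb1*, from chr12:31265043-31265342 on the plus strand, held 2 and 1, and that of *Sparc*, from chr11:55420031-55420330 on the minus strand, held 0 of either. Of the promoters not printed, that of *Lama5* held 4 GC boxes and no CACCC box and lay under no peak of replicate 2, and that of *Lamb2* held no GC box and 1 CACCC box. Each motif was thus in 4 of the 6. Over 17491 promoters of protein-coding genes of the same length, 46.3% held a GC box and 32.8% a CACCC box. These matches are a description of the letters and not of bound proteins.

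In replicate 3 the strength of the shared regions at the 9 genes was close to that of shared regions over the genome. In replicate 2 it was lower for all 35 together and at gene ends, and the same in median at distal regions. The median fold enrichment of the 35 was 8.81 in replicate 2 and 23.4 in replicate 3, against 10.48 and 27.03 over 24199 shared regions. The 5 at gene ends had medians of 11.4 and 44.3, against 14.9 and 43.0 for 8983 shared regions at the ends of protein-coding genes, and the 30 distal ones 8.81 and 20.5, against 8.81 and 21.2 for the other 15216. Above the median of the whole list were 32 of the 35 in replicate 3, against 93.0% of all shared regions, and 14 of the 35 in replicate 2, against 53.8%. Across the 35 shared regions, which lie in the same 2 libraries and often in the same gene, Spearman's rho between the fold enrichments of the libraries was 0.82, and it was 0.84 over all shared regions. The 67 regions of replicate 3 alone had a median of 5.54, against 6.20 over all such regions, and a range of 3.01 to 20.4 that overlapped that of the shared regions, 6.20 to 95.3. They were also narrower, with a median width of 267 bp against 588 bp.

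Of the 30 shared distal regions, 22 lay in the body of a gene and 8 in the 10 kb beside it, and 1 lay at an end of another protein-coding gene, the *Adrm1* region. At the genes with a listed strand, 12 of these regions lay in the body, and 10 (83.3%) were nearer the 5′ end than the 3′ end, against 59.7% of 7429 such regions over all protein-coding genes with a listed strand. Of the 10, 7 belonged to *Hspg2*. The exceptions were the *Sparc* body region and the *Hspg2* region 58.7 kb downstream. The counts depended on the overlap asked for. With a reciprocal overlap of at least 50%, *Lama4* had 4 shared distal regions, *Hspg2* 3, *Nid1* 2, and *Lama5* 1, and *Lamb2*, *Lamc1*, *Nid2*, and *Sparc* had 0. By the share of the body covered by peaks of both libraries, *Lama4* was at the 80.9th percentile of genes of like length, *Nid2* at the 65.2nd, *Nid1* at the 58.8th, *Lamb2* at the 24.5th, and *Lamb1* at the 17.1st, the last 2 with no base covered. Without replicate 2, *Lamb2* was at the 45.7th. Among all genes of at least 10 kb, the covered share of *Lama4* was lower in rank, at the 67.5th percentile, and that of *Hspg2* at the 89.2nd. Those of *Sparc*, *Lama5*, and *Lamb1* were higher in rank than among genes of like length, at the 92.6th, 56.1st, and 19.8th.

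**Figure D3:**
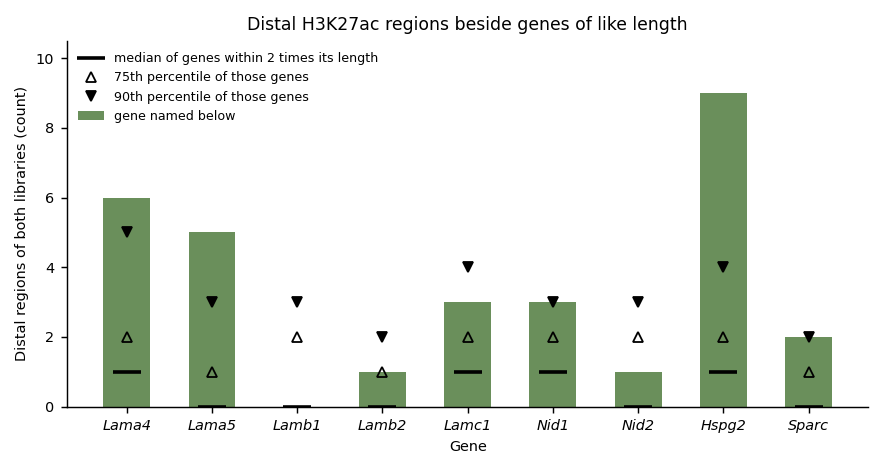
Number of distal regions of both libraries (y axis) at each of the 9 genes (x axis, bars), with the median, 75th, and 90th percentiles of protein-coding genes within 2 times the length of each as symbols. *Hspg2*, *Lama4*, and *Lama5* stand above the 90th percentile of their genes, *Nid1* and *Sparc* are level with it, and *Lamb1* is at 0.

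The other genes of the basement membrane, in 5 lists of 77 genes in all, were set beside the 9, again with 44.1% of all protein-coding genes for a shared gene-end region and 39.3% for a shared distal one. None of 7 other laminin chains and netrin genes had a shared gene-end region, among them *Lama1*, *Lama2*, *Lama3*, and *Lamb3*, whose chains occur mostly in epithelia, muscle, or the embryo. *Ntn4*, for a netrin that binds laminin γ chains, was the exception among distal regions, with 6 shared ones, while no other gene of that list had more than 1. Of 23 other basement membrane components, 3 had a shared gene-end region, *Agrn*, for the heparan sulfate proteoglycan agrin, *Vwa1*, and *Egfl7*, for a protein secreted by endothelium, where the replicate 2 peak lay more than 1 kb from the gene end. Shared distal regions lay at 12 of the 23. *Egfl7* had 6 shared distal regions. *Col4a1* and *Col4a2*, the type IV collagen chains that the study is about, had 7 and 9 in the windows used here. Neither had a shared gene-end region, as *Lama4* and *Lama5* had not. Replicate 3 had 1 gene-end peak at *Col4a1* and 2 at *Col4a2*, and replicate 2 had none. The paper describes a bidirectional promoter of this pair, so their windows overlap there and a region can be counted for both. *Hspg2* had as many shared distal regions as *Col4a2*, and *Col18a1*, for a collagen that carries heparan sulfate, had 0. *Col4a3* to *Col4a6* had at most 1, and *Fn1* and *Fbln1* had 0 in both classes.

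Integrins, dystroglycan, and syndecans are receptors that hold cells to these proteins. Of 17 receptor genes, 5 had a shared gene-end region, *Itga1*, *Itgb1*, *Dag1* (dystroglycan), *Bcam*, and *Sdc4*, and 15 had a shared distal region. *Itga9* had 10, *Itga1*, whose integrin binds collagen IV and laminin, had 9, and *Itga6*, for a laminin receptor subunit, had 4. *Mcam*, for CD146, the antigen of the beads in the general LSEC protocol, had a gene-end peak in replicate 3 only and 2 shared distal regions. Of 18 genes for assembly, crosslinking, and heparan sulfate enzymes, 8 had a shared gene-end region (*P4ha1*, *P4hb*, *Plod1*, *Plod3*, *Colgalt1*, *Ext1*, *Ext2*, and *Hs2st1*) and 11 a shared distal one. *Ext1*, a polymerase of the heparan sulfate chains that perlecan carries, had 8, *Ndst1*, which modifies these chains, had 6, *Pxdn*, the peroxidase that crosslinks type IV collagen, had 5, and *Plod1*, a lysyl hydroxylase of collagens, had 3. Of 12 proteases and inhibitors, 6 had a shared gene-end region (*Timp3*, *Adamts1*, *Adamts4*, *Adamts9*, *Htra1*, and *Hpse*, the heparanase that cuts heparan sulfate) and 7 a shared distal one. *Mmp14*, for a membrane-bound metalloprotease, had the most of these, 5, without a shared gene-end region, followed by *Adamts9* with 4 and *Hpse* with 2. Over the 5 lists, 22 of 77 genes (28.6%) had a shared gene-end region, a share below the 44.1% of all genes. A shared distal region lay at 49 (63.6%), above the 39.3% of all genes, whose median length was shorter than that of each list. With regions at ends of other protein-coding genes left out, 41 of the 77 had a shared distal region, and 33 had one in the gene body alone. The shares of all genes under these rules were not counted.

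**Figure D4:**
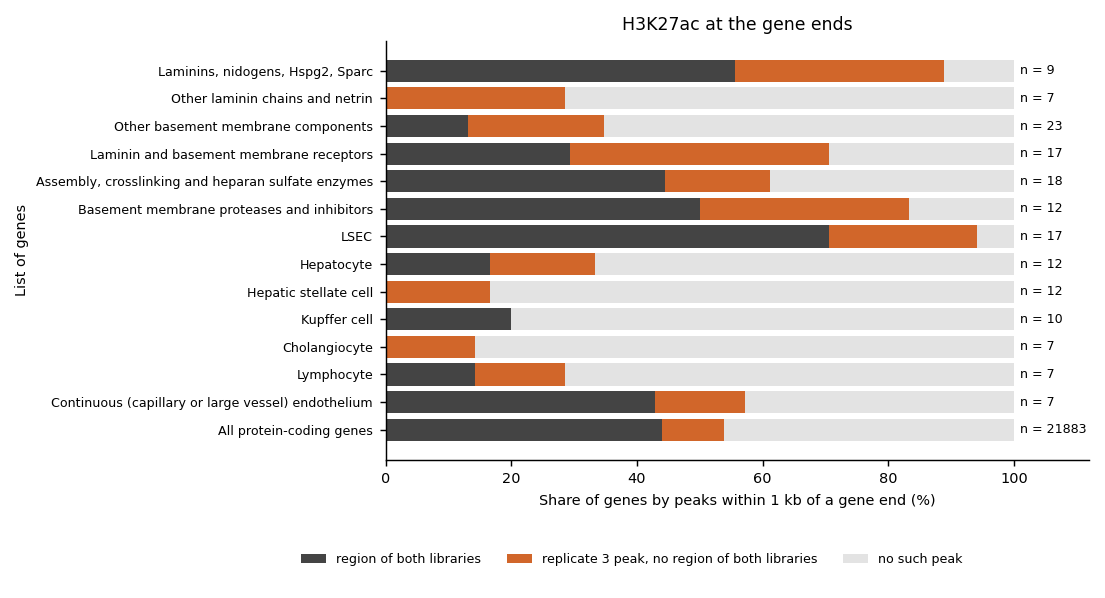
Share of genes in each list (x axis, percent) with a shared gene-end region, with a replicate 3 gene-end peak but no such region, or with neither, by list (y axis), with the number of genes on the right. LSEC markers have the largest share of regions of both libraries, 12 of 17, and the other laminin chains, hepatic stellate cell markers, and cholangiocyte markers have 0.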

How the data were processed

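H3K27ac ChIP-Seq peaks of 2 LSEC libraries were used. The authors deposited 1 peak list per library, not pooled, in a layout of 10 columns, with the fold enrichment (a ratio to background), the −log10 of the p-value and of the q-value, and a score that is 10 times the latter as a whole number. The submitters' processing notes name the build mm10 and cutadapt 0.4.4, BWA 0.7.17, Picard 1.67, MACS2 2.0.10, and bedtools 2.27.1. Their settings, and whether the inputs entered the peak calls, are not given in the sources used here. More reads give more peaks, and the depth is unknown.

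Genes and promoters came from RefSeq tables of GRCm38.p6, in which exons are not given, so a position in a gene body was not split further. Positions are counted from 1. The members and lists were chosen with earlier results of these data known, so no p-value is given. All 9 members are named, with neighbouring genes and, per list, the genes with a shared gene-end region and up to 4 with the most shared distal regions (fewer where counts tie), other genes being named after their values were seen. Percentiles count ties at the middle. Counting was tested on simulated data. Alternatives changed the q-value, number of peaks, overlap, windows, neighbours, joining, and libraries. The tools were pandas 2.3.3, numpy 2.4.6, matplotlib 3.10.9, statsmodels 0.14.6, and scipy 1.17.1 under Python 3.11.15.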

Additional observations from a re-analysis of the deposited data

How the results depend on the processing

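No paired analysis was possible because there is 1 group of 2 libraries and no test was made; the input samples of like number were not used here. The unknown depth limits what a missing replicate 2 peak can show.

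A reciprocal overlap of at least 50% left 2 of 9 genes with a shared gene-end region and 4 with a shared distal one, 10 distal regions in all (median per gene 0), 11.2% of distal replicate 3 peaks with a replicate 2 peak, and 7 of the 77 other genes with a shared gene-end region. With an overlap of 1 bp, 22 of those 77 had one. The shares of all protein-coding genes under the 50% rule were not counted, so these counts have no background. Of the 6 members with a listed strand, 2 had a shared region at the 5′ end, and the share of all genes was not counted that way. In the narrower window of the 300-base promoters, 7541 of 17491 lay under a region of both libraries, those of *Nid1* and *Hspg2* among them. With 50 kb beside the gene body there were 48 shared distal regions (median 6), with the gene body alone the median was 1, and with regions joined across the gap used to stitch enhancers there were 15. Of distal replicate 3 peaks, 33.7% had a replicate 2 peak, and 78.1% did when the longer list was cut to its strongest peaks, as many as in the shorter. The median percentile of the covered share, 65.2, was 66.7 at a q-value limit of 1e-05 and 66.7 with lists of equal length, and 62.4 among genes of at least 10 kb.

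With each library left out, the members with a gene-end region numbered 5 on replicate 2 alone and 8 on replicate 3 alone, the distal regions ranged from 33 to 89, their median per gene from 3 to 9, the other genes with a gene-end region from 21 to 43, and the median percentile from 65.0 to 80.8. Of 190 alternatives to 26 results, 118 stayed within their limit (1.5 times for a count, a 95% Wilson interval for a percentage or percentile) and 72 moved, and as counts and percentages they have no direction to reverse. Joining of regions was run for the total of distal regions, not for the counts of each gene. The flank width and the leaving out of distal regions at other genes do not enter the gene-end counts or covered shares, nor do the overlap rule and gene-end distance enter the covered shares, and these were not run there.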

Other observations

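The promoters of the members differed in base composition. Of the 6 with a sequence, *Lama5* and *Hspg2* had 72.7% and 70.3% G and C, at the 92.8th and 89.1st percentiles of 17491 promoters, and 24 and 27 CpG. *Nid1* and *Lamb1* had 20 and 18 CpG. *Lamb2* and *Sparc* had 4 each, against a median of 13. Over all promoters, those under a region of both libraries had a median of 23 CpG (n = 7541) and the others 5 (n = 9950). *Lama5* and *Lamb1*, above the median in CpG, had no shared region at the promoter.

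Other motifs were searched in the same 6 promoters, on both strands. None of the 6 held the ETS motif (CCGGAAG), which 11.9% of all promoters held, the motif of AP-1 proteins (TGANTCA), held by 7.08%, or that of GATA factors (written AGATAA), held by 9.96%. The same was true of the TATA box (written TATAAA), held by 13.3%, the SOX motif (ACAATGG), held by 2.94%, and the NF-Y motif (GCCAAT), held by 17.4%. The shorter letters CCAAT, on either strand, are in the printed promoters of *Lamb1* and *Nid1*, and were not searched over all promoters. An NF-κB pattern, GGG followed after any 5 bases by CC, was in 6 of 6, against 56.5%, and in part overlaps the GC box. The lack of a match says only that these letters are not in these 300 bases.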
